A study of Mus musculus with 12 samples.

Results

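The Hippo pathway genes and the Yap1-Birc2 locus were examined for changes of DNA copy number in 12 liver tumors of Mdr2-KO/FVB mice. The genes were chosen by name, with earlier results of these data known. Of 10 genes asked for, the array named 8 (Yap1, Birc3, Wwtr1, Stk3, Stk4, Sav1, Lats2 and Nf2) with 18 probes of their own, out of 20464 named genes that could be followed in the whole data set. Birc2 and Lats1 carried no probe of that name, and for these genes the probes between or around their chromosomal neighbors were read instead.

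In array-based comparative genomic hybridization (aCGH), tumor DNA and reference DNA are labeled with different dyes and hybridized together, and their ratio at each probe gives the relative number of DNA copies. Here DNA of each tumor (red, Cy5) was set against DNA of non-tumor liver taken from that mouse at a distance from the tumor (green, Cy3), on 1 array per tumor with no dye swap. All mice lacked Mdr2 (Abcb4), the canalicular phospholipid transporter, in the FVB strain, and this loss causes chronic bile duct inflammation and later hepatocellular carcinoma. The non-tumor livers carried the same knockout. The post-PHx group held 6 tumors of 9-month-old mice (4 males, 2 females) that had undergone 70% partial hepatectomy (PHx) at 3 or 6 months of age. The spontaneous group held 6 tumors of untreated mice aged 13 to 14 months (2 males, 4 females). Hepatectomy and age therefore cannot be told apart between the groups. Each tumor came from 1 animal, and a level is a mean over all cells of the sample, so a change in a share of the cells and a smaller change in all of them cannot be told apart. The X chromosome signal of both channels fitted the sex in the name of 12 of 12 tumors.

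The Hippo pathway is a kinase cascade that limits organ size. Stk3 and Stk4 (the mammalian Hippo kinases) with their scaffold Sav1 activate Lats1 and Lats2, which phosphorylate Yap1 and its relative Wwtr1 (TAZ) and keep these coactivators out of the nucleus, while Nf2 (merlin) acts upstream and recruits the Lats kinases to the membrane. When the kinases are inactive, Yap1 and Wwtr1 bind Tead transcription factors and switch on growth genes, and in the mouse liver loss of the brakes or excess Yap1 leads to overgrowth and tumors. Birc2 and Birc3 (cellular inhibitors of apoptosis) restrain cell death and lie beside Yap1 in mouse and man.

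The value of a gene is the mean log2 ratio of its own probes and the 10 nearest probes on each side, a window of 19 to 23 measured probes for these genes, with the median of the autosomal probes of an array set to 0. The standard error of a window over its probes had a median of 0.0393 and ranged from 0.026 to 0.125. A window was counted as gained or lost at a log2 ratio of 0.4 or more in size, the size filter of the study's aberration calls, which equals a ratio of 1.32. With 1 array per tumor such a count has no replicate check.

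In the post-PHx tumors 5 of 48 pairs of a gene and a tumor were gained (10.4%), beside 2.21% of the pairs of all genes in the same tumors. None of the 48 was lost, and none of all genes (0%). In the spontaneous tumors 1 of 48 pairs was gained (2.08%, beside 1.53% of all) and 2 were lost (4.17%, beside 2.02% of all). These shares are a description and were not tested, since the genes were chosen with earlier results of these data known. The 8 pairs fell in 4 tumors. PHx3M had gained Yap1, Birc3 and Stk4, PHx4M had gained Stk4 and Wwtr1, Spon4F had gained Sav1, and Spon5F had lost Sav1 and Lats2. In 8 of 12 tumors no gene of the 8 passed the threshold, although Spon1M came close with Sav1 at 0.39 and Stk4 at 0.38. The Yap1 and Birc3 windows shared 19 probes, so that their gains in PHx3M were 1 event. Over all genes PHx3M had 4.96% of windows gained and PHx4M 4.27%, while Spon5F had 5.43% lost, so that these tumors also had many changes elsewhere. Spon1M had 6.08% of windows gained and none of the 8 genes past the threshold.

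**Figure D1:**
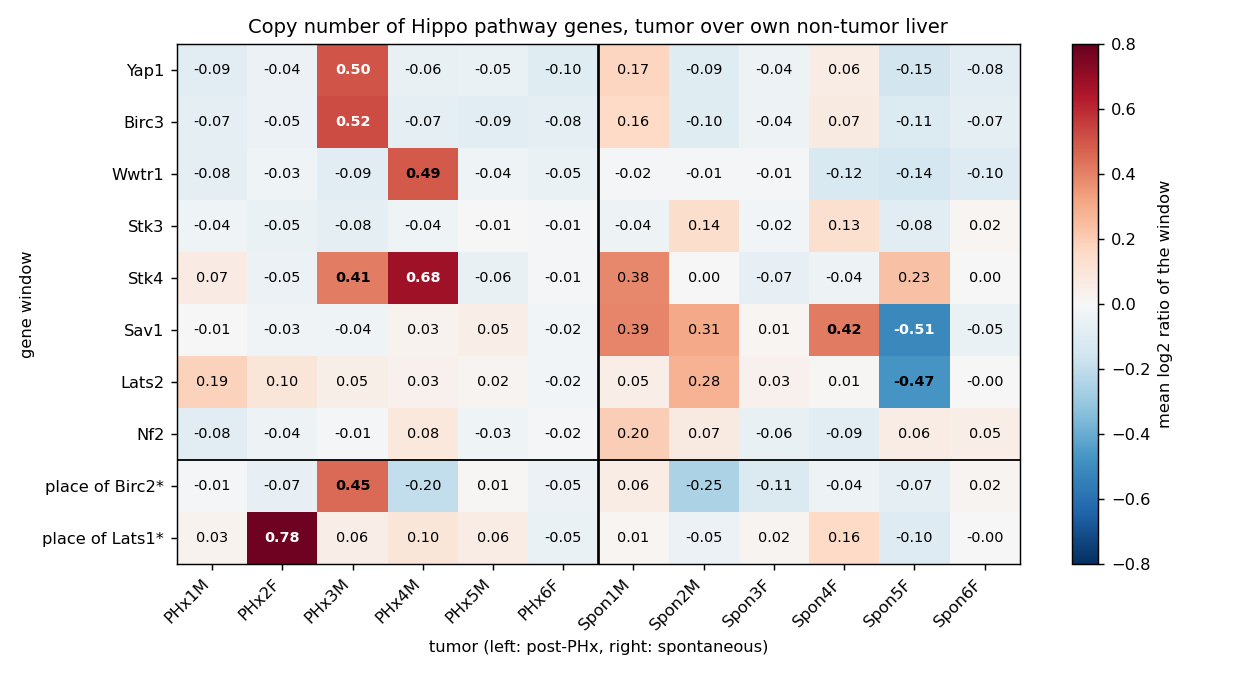
Mean log2 ratio of each gene window (rows) in each tumor (columns), post-PHx tumors to the left of the black line and spontaneous tumors to the right, with values of at least 0.4 in size in bold. The 2 lowest rows, marked with an asterisk, are the places of Birc2 and Lats1, which have no probe of that name. Yap1 and Birc3 stood out in PHx3M alone (0.50 and 0.52), the place of Lats1 in PHx2F (0.78), and Sav1 ranged from -0.51 to 0.42 among spontaneous tumors.

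Yap1, the coactivator at the end of the cascade, had 2 probes at chr9:7932836-7976006 (build mm8, as for all positions given here). Its window stood at 0.50 in PHx3M, against -0.09 in PHx1M, -0.04 in PHx2F, -0.06 in PHx4M, -0.05 in PHx5M and -0.10 in PHx6F. In the spontaneous tumors it stood at 0.17 in Spon1M, -0.09 in Spon2M, -0.04 in Spon3F, 0.06 in Spon4F, -0.15 in Spon5F and -0.08 in Spon6F. PHx3M alone was high, at 1.42-fold over its own liver, and the remaining post-PHx tumors lay within the range of the spontaneous ones. All 22 probes of the window were above 0 in PHx3M, with an SD over probes of 0.18. The 2 Yap1 probes themselves read 0.64 and 0.33 there.

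Birc3 had 3 probes at chr9:7851652-7869390, 63.4 kb from those of Yap1. In PHx3M they read 0.47, 0.51 and 0.53, and the window stood at 0.52, while the remaining post-PHx tumors ranged from -0.09 to -0.05. The spontaneous tumors had a lowest value of -0.11, a median of -0.06 and a highest of 0.16, in Spon1M. Birc2 lies on the far side of Birc3 from Yap1 in the RefSeq gene order of GRCm38, and that table gives each of the symbols Birc2 and Birc3 as an older name of the other, so that the Birc3 probes of this older array may not all belong to the gene now so named. The 4 probes between Mmp7 and Birc3, at chr9:7836872-7839957, had a mean of 0.45 in PHx3M. Their means in the other tumors ran from -0.25 in Spon2M to 0.06 in Spon1M. The gain in PHx3M thus covered the probes on both sides of the place of Birc2.

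The gain in PHx3M was not limited to Yap1 and Birc3. A running mean of 21 probes stayed at 0.4 or more from the first probe of the chromosome past Yap1 (chr9:3156654-8947691, 88 probes over 5.79 Mb, mean log2 ratio 0.54, SD over probes 0.17). The last probe at the raised level ended at 9204079, 1.23 Mb past Yap1, and the next probe, at 10251615, lay beyond a stretch of 1.05 Mb without probes. The 23 probes from Yap1 to that point had a mean of 0.53 and the next 37 had a mean of -0.06, with an SD of 0.14 on each side. Chromosome 9 as a whole had a median of -0.05 in this tumor.

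Of 25 listed neighbors of Yap1 on proximal chromosome 9 the array held 19, and 19 of 19 were gained in PHx3M, with windows from 0.48 (Pgr, the progesterone receptor) to 0.60. No neighbor was gained in another tumor and none was lost. The neighbors with the largest mean differences between the groups were the inflammatory caspase genes Casp12 (0.60 in PHx3M), Casp1 (0.57) and Casp4 (0.57), the glutamate receptor gene Gria4 (0.52), the growth factor gene Pdgfd (0.60) and the dynein gene Dync2h1 (0.59). Matrix metalloproteinase genes made up much of the stretch between them and Yap1, with Mmp13 at 0.54 and Mmp7 at 0.54. The largest mean difference between the groups was 0.14, for Gria4 (limma adjusted p 0.979). In each comparison limma called 0 of the 19 neighbors.

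PHx2F had a smaller rise on the same chromosome that ended before Yap1. Its windows stood at 0.35 for Casp12, 0.32 for Pdgfd and 0.19 for Dync2h1, but at -0.05 for Mmp7 and -0.04 for Yap1. The running mean stayed at 0.25 or more over 16 probes (1.98 Mb, chr9:4974978-6957527, mean 0.33, SD over probes 0.19). In Spon1M the Yap1 window at 0.17 lay below the median of the whole chromosome, which was 0.28, so this tumor had a broad low gain with no peak at Yap1.

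**Figure D2:**
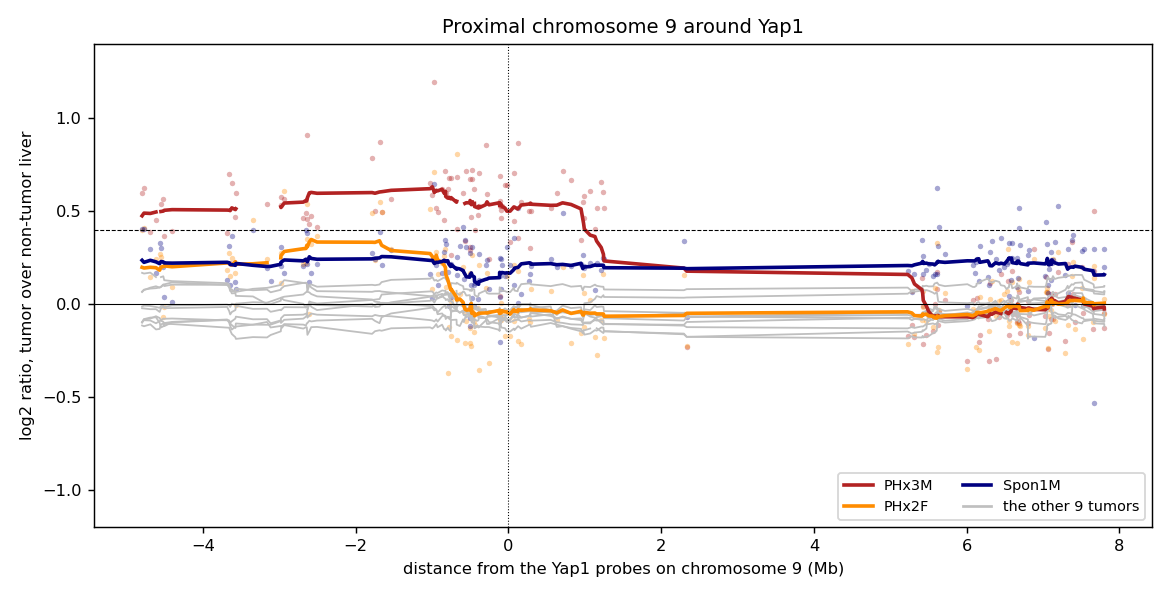
Log2 ratio (tumor over non-tumor liver) against the distance from the Yap1 probes on chromosome 9, in Mb. Lines are running means of 21 probes in each tumor and points are single probes of the 3 colored tumors, with the dashed line at 0.4. PHx3M stayed near 0.54 to 1.23 Mb past Yap1, PHx2F was raised only nearer the centromere, and Spon1M was raised throughout. The lines slope across stretches without probes.

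Wwtr1, the TAZ coactivator, had 2 probes at chr3:57614279-57614783. Its post-PHx windows stood at 0.49 in PHx4M, against -0.08 in PHx1M, -0.03 in PHx2F, -0.09 in PHx3M, -0.04 in PHx5M and -0.05 in PHx6F. The spontaneous tumors had a lowest value of -0.14, a median of -0.06 and a highest of -0.01. PHx4M alone was raised, and the gene lay on the shoulder of that gain. The 10 probes on the lower side of Wwtr1 had a mean of 0.67 (SD 0.34) and the 10 on the upper side 0.34 (SD 0.17), and the 2 own probes read 0.33 and 0.32. The running mean stayed at 0.4 or more over 3.49 Mb (chr3:54241600-57733541, 49 probes, mean 0.63) and at 0.25 or more over 10.9 Mb. With the own probes alone Wwtr1 stood at 0.32 in PHx4M, below the threshold. The window spanned 2.72 Mb, the widest of the 8, because probes were sparse there.

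Stk4 (Mst1), a kinase at the head of the cascade, had 2 probes at chr2:163805184-163829623. Its window stood at 0.68 in PHx4M, 0.41 in PHx3M, 0.07 in PHx1M, -0.05 in PHx2F, -0.06 in PHx5M and -0.01 in PHx6F. In the spontaneous tumors it stood at 0.38 in Spon1M, 0.00 in Spon2M, -0.07 in Spon3F, -0.04 in Spon4F, 0.23 in Spon5F and 0.00 in Spon6F. It was the only one of the 8 genes whose window passed 0.4 in more than 1 tumor in the same direction, with the window of PHx4M highest at 1.60-fold. Its own probes alone averaged past 0.4 in 4 tumors, at 0.58 in Spon1M, 0.54 in PHx4M, 0.53 in Spon5F and 0.45 in PHx3M. Those of Sav1 did so in 2, at 0.47 in Spon1M and in Spon4F. Those of Lats2 also did so in 2, at 0.52 in Spon2M and 0.41 in PHx1M. In the other direction, the own probes of Stk3 averaged -0.40 in PHx5M, and the 1 Stk3 probe kept in Spon5F read -0.42. For the windows at 0.25, Stk4 and Sav1 were each gained in 3 tumors. The groups overlapped, since Spon1M and Spon5F lay above 4 of the 6 post-PHx tumors. The value of PHx3M, 0.41, and that of Spon1M, 0.38, lay on either side of the threshold by less than the standard error of the PHx3M window (0.04).

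The gains at Stk4 differed in extent. In PHx4M the running mean stayed at 0.4 or more over 39.0 Mb to the last probe of the chromosome (chr2:142819528-181797594, 886 probes, mean 0.63, SD over probes 0.20). In PHx3M a lower level held over a longer stretch: at 0.25 or more it ran for 55.4 Mb, also to the last probe (1162 probes, mean 0.40). In Spon1M the stretch at 0.25 or more was 11.4 Mb long and ended within the chromosome (chr2:155783448-167196218, 293 probes, mean 0.40). Stk4 lay inside the shared portion of all 3, and the median of the whole chromosome was 0.08 in PHx3M, 0.09 in PHx4M and 0.01 in Spon1M.

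Stk3 (Mst2), the close relative of Stk4, had 2 probes at chr15:34889679-34944563. Its window was near 0 in all tumors, from -0.08 to -0.01 in the post-PHx group (median -0.04) and from -0.08 to 0.14 in the spontaneous group (median 0.00), highest in Spon2M. Its SD over the 12 tumors, 0.07, was the smallest of the 8 genes and close to the lower quartile of all windows (0.07, with a median of 0.10). The Hippo kinase pair thus differed in copy number change: Stk4 had an SD of 0.24, the second largest after Sav1 (0.25).

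Sav1, the scaffold of the Hippo kinases, had 2 probes at chr12:70887751-70902903. All post-PHx tumors lay between -0.04 and 0.05. In the spontaneous tumors the window stood at 0.39 in Spon1M, 0.31 in Spon2M, 0.01 in Spon3F, 0.42 in Spon4F, -0.51 in Spon5F and -0.05 in Spon6F. The spontaneous tumors were thus spread over 0.93 on the log2 scale and the post-PHx tumors over 0.09, with 3 high, 1 low and 2 near 0 in the spontaneous group. The medians of chromosome 12 were 0.35 in Spon1M, 0.27 in Spon2M and 0.36 in Spon4F, close to the Sav1 windows. In Spon4F the stretch at 0.25 or more held 73.7% of the probes of the chromosome. In Spon1M the corresponding stretch around Sav1 held 3.34% of them (3.17 Mb) and in Spon2M 5.99% (11.3 Mb), since the running mean dipped below 0.25 nearby. The loss in Spon5F spanned 49.5 Mb at -0.25 or below (chr12:59864966-109330728, 800 probes, mean -0.50, SD over probes 0.24), and there the Sav1 window equaled 0.70 of the level of the own liver. In that tumor 0 of 22 probes of the window were above 0. The own probes alone had a mean of -0.33, short of the threshold.

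Lats2, a kinase that phosphorylates Yap1, had 3 probes at chr14:56663063-56696025. Post-PHx windows ran from -0.02 in PHx6F to 0.19 in PHx1M, with a median of 0.04. The spontaneous windows stood at 0.05 in Spon1M, 0.28 in Spon2M, 0.03 in Spon3F, 0.01 in Spon4F, -0.47 in Spon5F and -0.00 in Spon6F. Spon5F alone was low, and its whole chromosome 14 was low with it: 1541 of 1541 measured probes lay in 1 stretch at -0.25 or below in the running mean (mean -0.49, SD over probes 0.24), and the Lats2 window differed from the chromosome median by 0.00. The own probes of Lats2 alone had a mean of -0.36 there, also short of the threshold. The window losses of Sav1 and Lats2 in Spon5F thus each lay within a broad stretch of low ratios. Unlike that of Lats2, the Sav1 window differed from its chromosome median there (-0.31), by -0.21. The rise in Spon2M covered 1.82 Mb at 0.25 or more, over a chromosome median of 0.16.

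Nf2, the upstream tumor suppressor merlin, had 2 probes at chr11:4672316-4694923 and no window past the threshold. The post-PHx values ran from -0.08 to 0.08 (median -0.02) and the spontaneous values from -0.09 in Spon4F to 0.20 in Spon1M (median 0.06). 1 of its own probes read 1.73 in PHx4M while the other read -0.15 there, and this single reading set the own-probe mean of Nf2 in that tumor. Its spot was the only kept spot of the 8 genes on any array that was not well above background. In the remaining tumors the same probe read from -0.19 to 0.14.

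Lats1, the second Lats kinase, lies between Nup43 and Katna1 in the RefSeq gene order of GRCm38. This place was added after the values had been seen. The probes from Nup43 to Katna1 (chr10:7363852-7450267) with 10 on each side, 26 in all, had a mean of 0.78 in PHx2F, larger than any value of the 8 named genes. The other post-PHx tumors stood at 0.03 in PHx1M, 0.06 in PHx3M, 0.10 in PHx4M, 0.06 in PHx5M and -0.05 in PHx6F, and the spontaneous tumors ran from -0.10 to 0.16. PHx2F, which had no named Hippo gene past the threshold, was thus high here and alone. Its stretch at 0.4 or more ran over 7.64 Mb from the first probe of the chromosome (chr10:3051921-10692810, 106 probes, mean 0.72, SD over probes 0.23), while the median of chromosome 10 was 0.00.

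**Figure D3:**
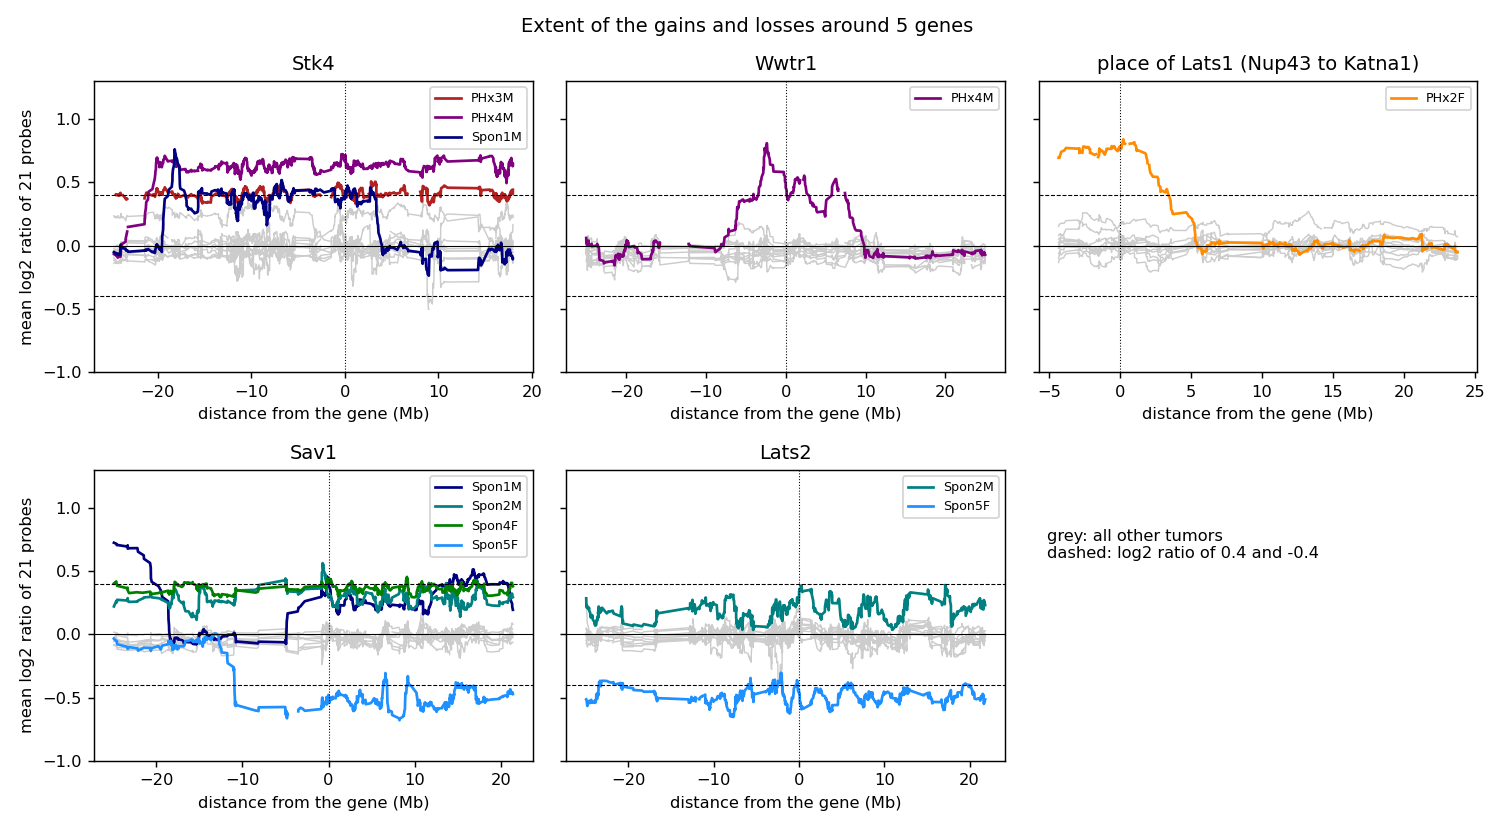
Running mean log2 ratio of 21 probes against the distance from the gene in Mb, for Stk4, Wwtr1, the place of Lats1, Sav1 and Lats2, with all other tumors in grey and dashed lines at 0.4 and -0.4. The gain at Stk4 reached the end of the chromosome in PHx3M and PHx4M and not in Spon1M, that at Wwtr1 in PHx4M fell off on both sides, that at Lats1 in PHx2F started at the first probe, and the losses at Sav1 and Lats2 in Spon5F were broad.

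The groups were then compared. Over all 20464 gene windows limma (Benjamini-Hochberg adjustment) called 0 between post-PHx and spontaneous tumors (0%), with 1304 at an unadjusted p below 0.05 and a smallest adjusted p of 0.681. Among the 8 genes 0 were called and 0 had an unadjusted p below 0.05. The differences ran from -0.10 for Sav1 to 0.10 for Wwtr1, with limma adjusted p from 0.979 to 0.982. The intervals were wide: the 95% interval of the difference was -0.16 to 0.26 for Yap1, -0.17 to 0.25 for Birc3, -0.19 to 0.37 for Stk4, -0.38 to 0.19 for Sav1 and -0.13 to 0.28 for Lats2. It was -0.09 to 0.29 for Wwtr1, -0.16 to 0.05 for Nf2 and -0.15 to 0.03 for Stk3. Only for Nf2 and Stk3 did the interval leave out a difference of 0.25 in either direction. The median difference was 0.04 over the 8 genes and 0.01 over all windows.

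Single tumors set the sign for several genes. The Yap1 difference was 0.05, and it was -0.05 without PHx3M. Birc3 went from 0.04 to -0.06 without the same tumor, Stk4 from 0.09 to -0.01 without PHx4M, and Lats2 from 0.08 to -0.01 without Spon5F. With sex as a covariate the difference of Yap1 was 0.0089 and that of Birc3 0.0072, and the groups had opposite sex ratios. Only slide 2 held both groups (PHx5M and PHx6F against Spon5F and Spon6F). Within it the differences were 0.04 for Yap1, 0.01 for Birc3, 0.08 for Wwtr1, 0.24 for Lats2 and -0.08 for Nf2, all of the same sign as over 12 tumors, while those of Stk4 (-0.15), Sav1 (0.30) and Stk3 (0.025) had the opposite sign. Each group had only 2 tumors on slide 2, and the Lats2, Sav1 and Stk4 differences there rested largely on Spon5F. The windows of Spon5F and Spon6F were -0.47 and -0.00 for Lats2, -0.51 and -0.05 for Sav1, and 0.23 and 0.00 for Stk4. The 6 gained pairs were all on the 2 slides that held 1 group each, where slide and group cannot be told apart.

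Against their own non-tumor liver, limma called 0 of 20464 windows in the post-PHx tumors (0%, with 1410 at an unadjusted p below 0.05) and 0 in the spontaneous tumors (0%, with 3385), and 0 of the 8 genes in each. The mean of Stk4 was the furthest from 0 in the post-PHx group (0.17, 95% interval -0.02 to 0.37, limma adjusted p 0.779) and that of Sav1 in the spontaneous group (0.09, -0.11 to 0.29, limma adjusted p 0.712).

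**Figure D4:**
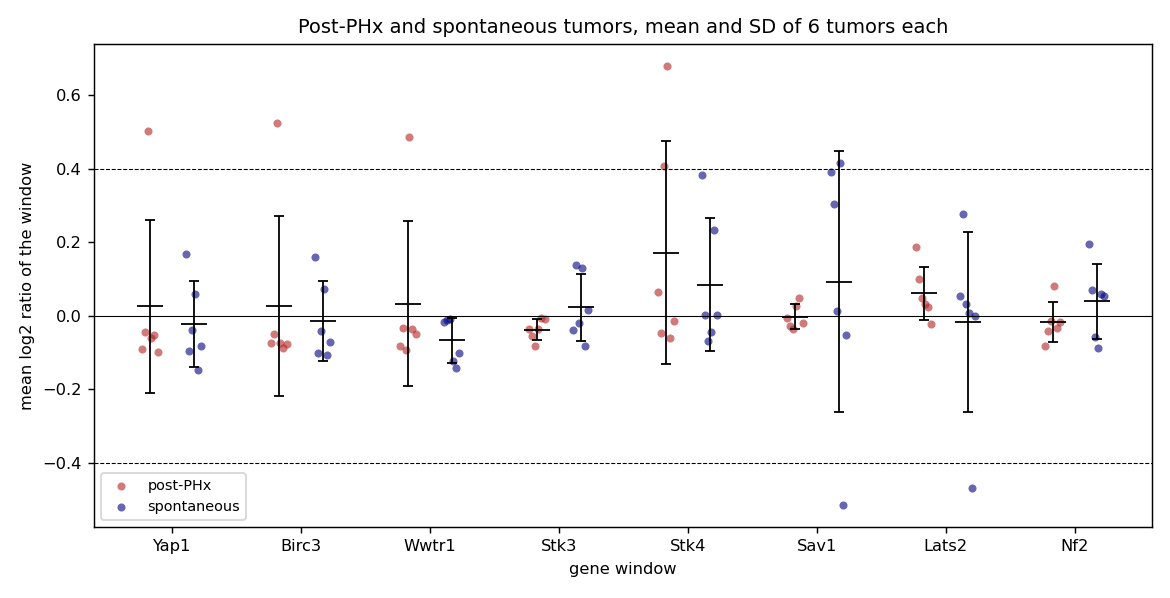
Mean log2 ratio of each gene window in the 6 post-PHx and 6 spontaneous tumors (points), with the mean and SD of each group as black bars and dashed lines at 0.4 and -0.4. The groups overlapped for every gene, and single tumors such as PHx3M for Yap1 (0.50) and Spon5F for Lats2 (-0.47) stood apart from the rest of their group.

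Own probes were set against the 20 probes around them to see whether a change sat on the gene itself. Over the 12 tumors limma called 4717 of 20464 genes in this comparison (23.1%), and 3 of the 8: Stk3 (-0.24, 95% interval -0.31 to -0.16, adjusted p 0.00057), Sav1 (0.08, 0.03 to 0.14, adjusted p 0.035) and Lats2 (0.10, 0.03 to 0.18, adjusted p 0.045). With more than 1 in 5 of all genes called, such an offset was common on these arrays. The own-probe mean of Stk3 lay below the flanks in 12 of 12 tumors, that of Sav1 above in 11 and that of Lats2 above in 10. Single probes differed: in PHx6F the Stk3 probes read -0.37 and 0.27. Of the 3 Lats2 probes, the third read from 0.22 to 1.09 in 10 of 12 tumors, while the second read from -0.12 to 0.12 in 10 and -1.29 in Spon3F. Only Stk3 was called under each of the alternatives that were run. Yap1 (0.05, -0.01 to 0.11) and Birc3 (0.02, -0.02 to 0.06) were not called, and in PHx3M their own probes differed from the flanks by -0.02 and -0.03. After normexp background correction, however, both were called, with Yap1 below its neighbors (-0.18, -0.26 to -0.11, limma adjusted p 0.000895) and Birc3 above (0.17, 0.12 to 0.21, limma adjusted p 3.2e-05), while Lats2 was not and had the opposite sign (-0.05, limma adjusted p 0.245). Under this correction limma called 9270 of all 20464 genes. Nf2 also turned, from 0.04 to -0.23 (limma adjusted p 1.8e-05), and Sav1 rose to 0.22. Stk4 was not called before the correction (0.09, limma adjusted p 0.138) and was called after it (0.12, 0.05 to 0.19, limma adjusted p 0.0123). Nf2 was also below 0 with only the spots well above background (-0.0367) and without PHx4M (-0.0218). The offsets did not differ between groups for any gene tested (0 of 20464, 0%, by limma, with 540 at an unadjusted p below 0.05). Whether the offsets come from the probes or from the DNA was not tested.

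**Figure D5:**
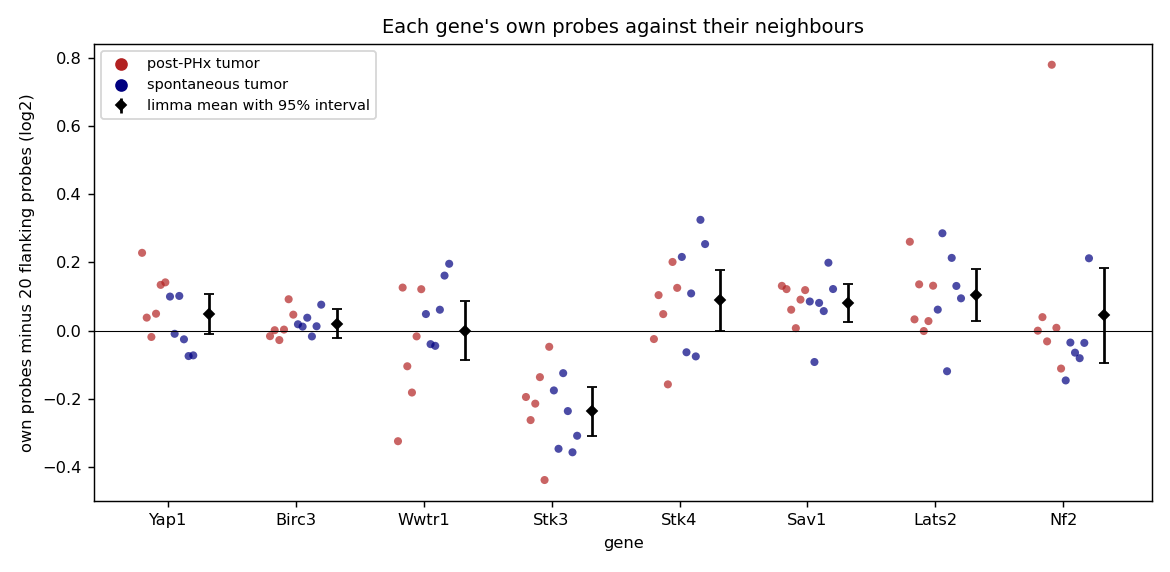
Mean log2 ratio of the own probes minus that of the 20 flanking probes for each gene in each tumor (points, post-PHx in red and spontaneous in blue), with the limma mean and its 95% interval in black. The mean of the Stk3 probes lay below the flanks in 12 of 12 tumors (mean -0.24), and the single high point of Nf2 is PHx4M, from a spot not well above background.

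Of 35 other genes of the pathway the array held 31, and 26 of these passed the threshold in no tumor. In the post-PHx tumors 3 of 186 pairs were gained (1.61%, beside 2.21% of all genes) and 0 lost. In the spontaneous tumors 0 were gained (beside 1.53% of all) and 3 lost (1.61%, beside 2.02% of all). No gene of the list was called by limma in a comparison. Ankrd1, a target gene of Yap1, and Fat4, an upstream cadherin, are given after their values were seen. In the spontaneous tumors the Ankrd1 window lay below 0 in 6 of 6 (-0.19, 95% interval -0.27 to -0.11, limma adjusted p 0.0697), as did that of Fat4 (-0.12, -0.17 to -0.07, limma adjusted p 0.0697). This adjusted p was the smallest of that comparison and was shared by 224 windows. The low Fat4 window was not limited to the spontaneous tumors. In the post-PHx tumors it ran from -0.10 in PHx1M to -0.01 in PHx2F (mean -0.06, 95% interval -0.11 to -0.01, limma adjusted p 0.653). The post-PHx mean of Ankrd1 was -0.01 (95% interval -0.10 to 0.07). Ankrd1 and Fat4 were both called in the spontaneous tumors on centring on the mode (limma adjusted p 0.0388 for each), after normexp correction (0.0281 for Ankrd1 and 0.0287 for Fat4) and without Spon5F (0.0360 and 0.0365). Under these settings limma called 417, 797 and 607 of all 20464 windows. Neither gene was called under any other alternative run for this comparison. There the limma adjusted p rose to 0.194 for each without Spon1M, and was 0.127 for Fat4 and 0.132 for Ankrd1 with the median of the probes. Between the groups neither was called (limma adjusted p 0.681 for Ankrd1 and 0.979 for Fat4). Gains touched Wtip, an inhibitor of the Lats kinases, at 0.65 in PHx3M and 0.42 in PHx4M, and Axl, a receptor kinase known as a Yap1 target, at 1.11 in PHx3M. Losses touched the upstream genes Frmd6 (-0.47 in Spon5F) and Ptpn14 (-0.42 in Spon3F), and the Lats inhibitor Ajuba (named Jub in the files, -0.45 in Spon5F). Frmd6 lies on chromosome 12 with Sav1 and Ajuba on chromosome 14 with Lats2, so their losses in Spon5F belong to the same broad changes. Axl and Wtip lay in the same stretch of chromosome 7 in PHx3M, at 0.4 or more over 17.9 Mb (chr7:17227678-35123215, 454 probes, mean 1.02, SD over probes 0.29), and the gain at Wtip in PHx4M covered 7.10 Mb. The Tead transcription factors, the DNA-binding partners of Yap1, stayed between -0.22 (Tead4 in Spon2M) and 0.16 (Tead2 in Spon4F).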

How the data were processed

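The members and gene lists were chosen with earlier results of these data known. Genomic DNA of 12 tumors was measured on 2-color Agilent 4x44K arrays. The authors deposited Feature Extraction 10.5.1.1 output, in which the log10 ratio of red over green was computed from processed signals, background-subtracted and dye-normalized. The deposited signal intensities (processed, mean and background) were used to check the ratios and for the normexp alternative. Ratios were multiplied to the log2 scale, control spots and those marked as outliers (108 to 1218 per array) were dropped, repeated spots of 1 probe were averaged, and the autosomal median of each array was set to 0. No loess was applied. Of 42404 probes 42235 had a position. Windows were made for names on 1 chromosome with a span of at most 3 Mb. All windows were fitted with limma 3.58.1 in R 4.3.3 (lmFit, eBayes, Benjamini-Hochberg, two-sided, threshold 0.05). The fit was also tried on simulated windows drawn independently of each other, whereas neighboring real windows share probes. Precision is limited by 6 tumors per group and by probe noise (0.147 to 0.265 on the log2 scale). Named were all members, up to 6 genes of each list past the threshold with the largest group difference, and the 3 windows on other chromosomes most like Yap1. Gene names are those of the files, matched to current symbols through older names; 1 neighbor matched only a name on another chromosome and was left out. Probe sequences were not used here. An item of the pathway list is not reported here.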

Additional observations from a re-analysis of the deposited data

Results flagged for a closer look

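In each group of 6 tumors, the gap between the most extreme tumor and the next was compared with the range of the group (Dixon's test). Of 16 combinations of a gene and a group 4 passed (25%). Over all 20464 windows 6727 of 40928 combinations passed (16.4%), above the 1 in 20 that the test allows by chance, and neighboring windows share probes. The Yap1 window of PHx3M (0.50, next -0.04) and the Birc3 window of PHx3M (0.52, next -0.05) passed with ratios of 0.912 and 0.937, and they share 19 probes. The Wwtr1 window of PHx4M (0.49, next -0.03) passed with 0.899. The Lats2 window of Spon5F (-0.47, next -0.00) passed narrowly with 0.629. The causes were not tested.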

How the results depend on the processing

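Between the groups 0 windows were called under every alternative run, including a slide block, slide 2 alone, sex as a covariate and the replicate block (0 called, Yap1 difference 0.05 as without it). With sex as a covariate the differences of Yap1 (0.0089), Birc3 (0.0072), Stk4 (0.0098) and Lats2 (0.027) were smaller by over 1.5 times and that of Sav1 (-0.16) larger. The Yap1 difference was also 0.132 with own probes alone and 0.0238 after normexp. Over all 24 alternatives the differences ranged from -0.0474 to 0.132 for Yap1, -0.0584 to 0.0760 for Birc3, -0.0129 to 0.236 for Lats2, -0.0824 to 0.0254 for Stk3, -0.154 to 0.147 for Stk4, -0.217 to 0.297 for Sav1, -0.0161 to 0.124 for Wwtr1 and -0.0829 to 0.0698 for Nf2. Tumor numbers did not pair the samples (r of same-numbered deviations -0.174 to 0.554, 1 of 6 above 0.1). Against own liver, post-PHx calls rose from 0 to 5 after normexp correction and 540 with own probes alone, including 1 of the 8 genes, Stk3. Spontaneous calls rose to 417 on centring on the mode, 797 after normexp and 848 with own probes alone (again 1 of the 8, Stk3), and ranged from 0 to 607 with each tumor left out, the highest without Spon5F. Own probes against flanks gave 9270 calls after normexp, 4708 and 4748 with 5 and 20 flanking probes, and 3696 to 4933 with a tumor left out (4717 otherwise), and of the 8 genes 6, 1, 1 and 1 to 3. Gained post-PHx pairs fell from 5 to 1 at a threshold of 0.6, and 1 loss appeared with own probes alone (Stk3 in PHx5M, -0.40). Gained spontaneous pairs (1) numbered 0 without centring and at 0.6, 2 with the median, 3 after normexp and with 5 flanking probes, and 5 with own probes alone and at 0.25. Lost spontaneous pairs (2) numbered 0 at 0.6 and 1 with own probes alone. That 1 was Stk3 in Spon5F (-0.42, from 1 kept probe) and neither of the 2. Reversed differences were those of Stk3 (0.0254), Stk4 (-0.15) and Sav1 (0.30) with the slide as a block and within slide 2, Wwtr1 (-0.0161) and Nf2 (0.0698) with own probes alone, and, with each tumor left out, Yap1 (-0.0474 to 0.0863), Birc3 (-0.0584 to 0.0760), Lats2 (-0.0129 to 0.136) and Stk4 (-0.0144 to 0.147). The cause was not tested. Over the 8 alternatives for the single windows, Yap1 in PHx3M ranged from 0.43 to 0.54, Stk4 in PHx4M from 0.54 to 0.71 and Sav1 in Spon5F from -0.57 to -0.33. The windows of Nup43 (0.66 to 0.80) and Katna1 (0.77 to 0.80) in PHx2F were added after the values had been seen.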

Other observations

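Over the 12 tumors, the windows on other chromosomes that varied most like Yap1 were all on chromosome 7: Nlrp9a (chr7:26267328-26278956, Pearson r 0.92), Ceacam11 (chr7:17133877-17133931, 0.91) and EG243881 (chr7:26377357-26377416, 0.91). In PHx3M they stood at 1.09, 0.37 and 1.06. Without this tumor r was 0.54, 0.76 and 0.53. Arrays of the same tumors give these points, and no test was made.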
